A study of Mus musculus with 4 samples.

Results

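The proteasome and the ubiquitin-conjugating enzymes form the degradation end of the ubiquitin system. Their genes were taken here as every protein-coding gene of the mouse build mm10 whose symbol begins with Psma to Psmg or with Ube2. This gave 88 of 21887 protein-coding genes. Of these, 49 encode proteasome subunits, regulators or assembly factors and 36 encode ubiquitin-conjugating (E2) enzymes or their close relatives. The other 3 matched by symbol alone: Psmc3ip, a meiotic recombination factor gene, Psme3ip1, encoding a protein that binds a proteasome activator, and Ube2cbp, also called Ube3d, an E3 ligase gene. Histone H3 lysine 27 acetylation (H3K27ac), a mark of active promoters and enhancers, was mapped by sequencing immunoprecipitated chromatin of primary chondrocytes of C57Bl/6 mice grown as micromass cultures. The Hdac3-knockout culture was transduced with Cre-recombinase adenovirus and the wild-type culture with GFP control adenovirus, with 1 library of each. HDAC3 is a histone deacetylase of the NCoR and SMRT corepressor complexes. The sources used here do not give the modified Hdac3 allele, the age of the mice or the number of animals behind each culture, and no RNA measurement was used to check the deletion.

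In the ubiquitin system an E1 enzyme activates ubiquitin, an E2 enzyme carries it, and an E3 ligase places it on a substrate. The 26S proteasome then unfolds and cuts the tagged protein. Its 20S core is a barrel of outer alpha rings and inner beta rings, with the proteolytic sites on beta subunits. The 19S particle caps the barrel, with a base of ATPases that unfold substrates and a lid that removes ubiquitin. Cells that secrete much matrix, such as chondrocytes, also send misfolded proteins from the endoplasmic reticulum to this machinery.

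Each library has 1 peak list from the authors, and each peak has a fold enrichment at its highest point, the summit, as the authors' caller gave it. The number of fragments stacked at the summit (the summit pileup) was solved from the fold and the p-value and came out whole at every peak. The Cre list held 13130 peaks and the GFP list 12873, with a median pileup of 12 in both and background pileups of 1.01 and 0.949. A peak was called a boundary peak when any of its bases lay within 1 kb of either annotated gene end, and an interior peak when it lay in the gene and farther than that from both ends. With 1 library per culture there was no replicate check and no test, and intervals cover counting error only. As to the cell type, 8 of 8 chondrocyte markers, among them Col2a1 and Acan, had a boundary peak in at least one list. None of the 14 markers of fibroblasts and bone, blood, endothelium or muscle had one, and Col3a1 alone had interior peaks.

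Acetylation was called at the ends of 20 members in the Cre library, which is 22.7% (exact 95% interval 14.5 to 32.9), and of 29 members in the GFP library, 32.95% (23.3 to 43.8). Over all protein-coding genes the Cre share was 13.5% and the GFP share 14.0%. Of the 88 members 32 were marked in either list (36.4%, 26.4 to 47.3, against 18.3% of all genes), and 17 were marked in both lists (19.3%, 11.7 to 29.1, against 9.26% of all genes). In the Cre list alone 3 were marked (3.41%, 0.709 to 9.64, against 4.28% of all genes), a share close to that of all genes. In the GFP list alone 12 were marked (13.6%, 7.25 to 22.6, against 4.77% of all genes). The remaining 56 had no boundary peak in either list. Of the 32 marked members, 53.1% (34.7 to 70.9) were shared between the libraries, against 50.6% of all marked genes. The Cre-alone and GFP-alone members made up 9.38% (1.98 to 25.02) and 37.5% (21.1 to 56.3) of the 32, against 23.4% and 26.1% of all marked genes. The one-library counts changed with the strength of the peaks counted. Among peaks whose −log10 q-value reached 5, 5 members were marked by Cre alone and 9 by GFP alone. Among the 5000 most significant peaks of each list, the counts were 5 and 10. The shares of all genes under these settings are not given here.

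**Figure D1:**
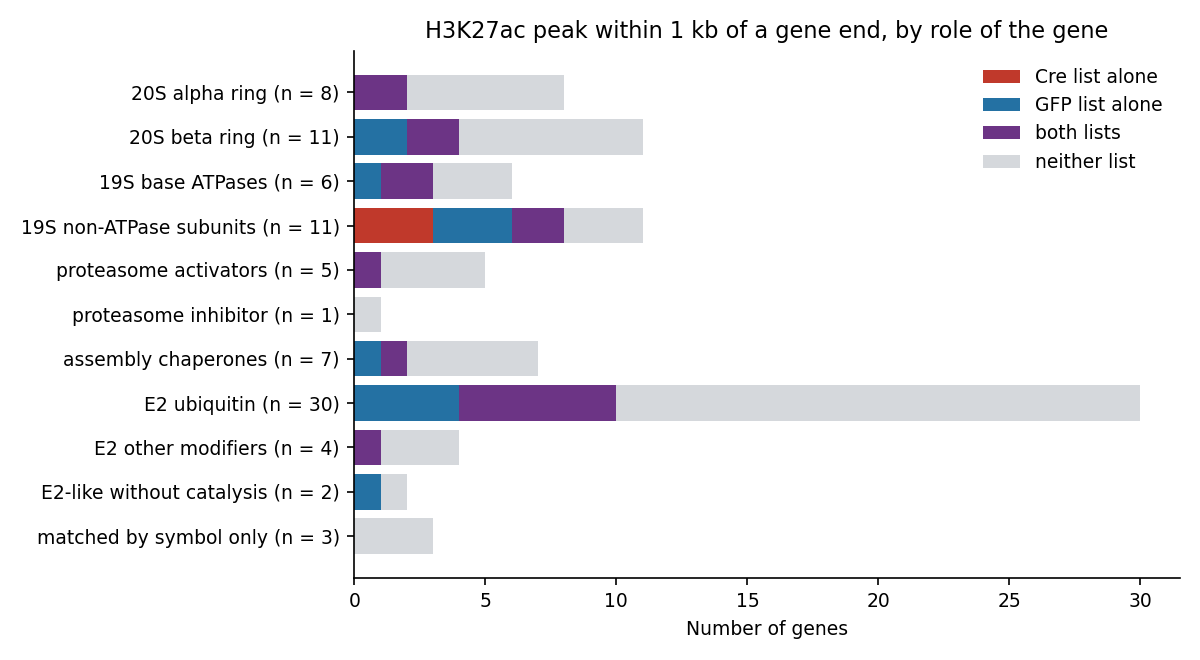
Number of member genes by role, divided by whether a boundary peak was called by Cre alone, by GFP alone, by both or by neither. The 3 genes marked in the Cre list alone all encode 19S non-ATPase subunits, whereas the 12 marked in the GFP list alone are spread over 6 of the roles.

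The promoters of 9 members are printed as examples of genes with shared and with one-library boundary peaks. Psmb5, Psmc5, Ube2s and Ube2z ranked first by fold among the shared members of their families. Psmd11 and Psmd2 had the highest folds of the Cre list alone. Psmc4, Psmd12 and Ube2n were marked in the GFP list alone, where Psmb2, Psmb1 and Ube2b had higher folds. Peaks overlapped the printed stretch in both libraries at Psmc5, Psmb5, Ube2s and Ube2z and in the Cre library at Psmd2. At Psmd11, Psmc4, Psmd12 and Ube2n they lay farther into the gene, beyond it. Each is the RefSeq sequence of build GRCm38.p6 from 250 bases before to 50 after an annotated start, on the strand of the gene. Capitals mark matches to the motifs described further on.
Psmd11, chr11:80428365-80428664, plus strand: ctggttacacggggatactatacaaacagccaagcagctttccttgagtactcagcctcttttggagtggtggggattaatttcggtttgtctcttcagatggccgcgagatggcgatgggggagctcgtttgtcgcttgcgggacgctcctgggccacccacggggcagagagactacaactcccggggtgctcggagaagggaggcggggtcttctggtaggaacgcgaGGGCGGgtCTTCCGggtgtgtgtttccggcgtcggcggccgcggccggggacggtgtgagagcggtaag
Psmd2, chr16:20651402-20651701, plus strand: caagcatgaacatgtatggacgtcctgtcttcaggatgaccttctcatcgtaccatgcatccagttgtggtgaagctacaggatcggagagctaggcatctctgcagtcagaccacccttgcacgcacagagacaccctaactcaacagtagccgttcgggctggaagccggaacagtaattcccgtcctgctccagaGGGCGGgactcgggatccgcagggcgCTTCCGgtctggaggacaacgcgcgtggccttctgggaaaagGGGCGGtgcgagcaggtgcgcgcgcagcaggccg
Psmc4, chr7:28050043-28050342, minus strand: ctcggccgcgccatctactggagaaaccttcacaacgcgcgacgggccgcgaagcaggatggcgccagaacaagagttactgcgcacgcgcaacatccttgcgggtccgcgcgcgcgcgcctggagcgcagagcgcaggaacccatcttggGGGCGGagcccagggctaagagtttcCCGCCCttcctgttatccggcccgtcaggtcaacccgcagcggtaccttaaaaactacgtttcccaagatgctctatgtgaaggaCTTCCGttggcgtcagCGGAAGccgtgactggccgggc
Psmd12, chr11:107479278-107479577, plus strand: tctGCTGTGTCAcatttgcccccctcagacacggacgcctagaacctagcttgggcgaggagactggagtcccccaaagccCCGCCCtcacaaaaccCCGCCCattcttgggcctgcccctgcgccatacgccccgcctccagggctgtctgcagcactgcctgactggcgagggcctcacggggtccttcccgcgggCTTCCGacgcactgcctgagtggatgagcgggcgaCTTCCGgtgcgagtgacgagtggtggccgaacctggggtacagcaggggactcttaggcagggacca
Ube2n, chr10:95514912-95515211, plus strand: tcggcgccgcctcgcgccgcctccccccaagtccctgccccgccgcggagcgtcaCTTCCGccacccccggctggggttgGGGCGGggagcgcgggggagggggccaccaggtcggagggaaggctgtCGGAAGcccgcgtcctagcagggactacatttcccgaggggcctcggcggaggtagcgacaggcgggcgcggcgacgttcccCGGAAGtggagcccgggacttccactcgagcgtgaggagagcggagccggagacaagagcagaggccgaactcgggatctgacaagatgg
Psmc5, chr11:106255935-106256234, plus strand: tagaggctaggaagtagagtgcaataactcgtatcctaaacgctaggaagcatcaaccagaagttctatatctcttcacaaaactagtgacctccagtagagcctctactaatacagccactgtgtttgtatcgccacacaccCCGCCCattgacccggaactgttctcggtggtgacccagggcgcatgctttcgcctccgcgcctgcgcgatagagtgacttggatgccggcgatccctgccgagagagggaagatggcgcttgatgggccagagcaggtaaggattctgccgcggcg
Psmb5, chr14:54617946-54618245, minus strand: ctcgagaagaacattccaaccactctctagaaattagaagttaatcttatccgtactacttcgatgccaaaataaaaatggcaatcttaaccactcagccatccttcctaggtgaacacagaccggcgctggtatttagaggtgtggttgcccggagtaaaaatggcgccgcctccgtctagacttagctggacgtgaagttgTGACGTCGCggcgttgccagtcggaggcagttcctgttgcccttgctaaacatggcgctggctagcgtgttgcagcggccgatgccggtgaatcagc
Ube2s, chr7:4812291-4812590, minus strand: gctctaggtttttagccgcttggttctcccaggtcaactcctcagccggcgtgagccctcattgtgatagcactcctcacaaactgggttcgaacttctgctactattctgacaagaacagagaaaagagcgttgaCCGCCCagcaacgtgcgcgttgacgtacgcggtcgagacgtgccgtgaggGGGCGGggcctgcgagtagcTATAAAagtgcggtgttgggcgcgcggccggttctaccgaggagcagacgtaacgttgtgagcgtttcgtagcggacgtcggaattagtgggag
Ube2z, chr11:96065315-96065614, minus strand: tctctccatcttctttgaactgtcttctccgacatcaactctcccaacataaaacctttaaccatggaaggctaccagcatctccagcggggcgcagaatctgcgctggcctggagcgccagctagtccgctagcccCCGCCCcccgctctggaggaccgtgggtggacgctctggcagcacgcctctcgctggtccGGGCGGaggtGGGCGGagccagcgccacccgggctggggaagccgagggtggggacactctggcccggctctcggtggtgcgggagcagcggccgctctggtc

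In the 20S core, 2 of 8 alpha (25%, 3.19 to 65.1) and 4 of 11 beta subunit genes (36.4%, 10.9 to 69.2) had a boundary peak. Both intervals include the 18.3% of all genes. The gene of a proteolytic subunit carried the strongest peak. Psmb5, whose product holds the chymotrypsin-like site, had 1 narrow peak in each list just before its start (chr14:54618068-54618257 in Cre, chr14:54618075-54618255 in GFP). The summit pileup was 33 fragments (exact Poisson 95% interval 22.7 to 46.3) in the Cre library and 28 (18.6 to 40.5) in the GFP library, with folds of 16.9 and 14.9. These folds were at percentiles 99.8 and 99.3 of their lists, and the intervals overlapped. Psmb3, a structural beta subunit gene, had pileups of 11 in Cre and 10 in GFP, close to the median of all peaks. The other marked beta subunit genes were called in the GFP library alone. Psmb1 had 3 GFP peaks covering 1217 bp around its higher-coordinate end, the largest with 15 fragments (8.40 to 24.7), and the nearest Cre peak lay 65715 bp away. At Psmb2 the Cre library had only an interior peak of 9 fragments (4.12 to 17.1), 3483 bp from the single broad GFP peak of 567 bp with 16 fragments (9.15 to 25.98).

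Among alpha subunit genes, which form the gated outer rings, Psma2 had pileups of 13 in Cre and 10 in GFP, and Psma3 had 17 and 15. The Psma3 folds were 8.96 in Cre and 5.59 in GFP. The Psma3 boundary summits lay at the gene end, at -5774 bp in Cre and -5772 bp in GFP from its annotated start. Psma6 had no boundary peak, but its interior peaks, with up to 13 fragments in Cre and 11 in GFP, lay within 1 kb of a second annotated start inside the gene. The genes with a restricted expression, Psma8 of the testis, Psmb11 of the thymus and the immunoproteasome subunits Psmb8, Psmb9 and Psmb10, had no peak in either list. Neither list had a peak at the boundaries of the widely expressed Psma1, Psma4, Psma5, Psma7, Psmb4, Psmb6 and Psmb7.

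Of the 6 genes for the ATPases of the 19S base, 3 were marked (50%, 11.8 to 88.2, an interval that includes the 18.3% of all genes). Psmc5 carried the highest pileup of all members, 36 fragments (25.2 to 49.8) in the Cre library and 42 (30.3 to 56.8) in the GFP library. Its peaks of 171 and 165 bp ended before its start. Their folds ran the other way, 18.4 in Cre and 15.0 in GFP. Fold is taken over an expected pileup, which was 1.01 in Cre and 1.86 in GFP at these peaks. A second GFP peak of 144 bp inside the gene had no Cre counterpart. Psmc3 had pileups of 16 in Cre and 15 in GFP. Psmc4 was marked in the GFP list alone, by a 147 bp peak with 13 fragments (6.92 to 22.2), and the nearest Cre peak was 70473 bp away. Psmc1, Psmc2 and Psmc6 had no peak.

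Of the non-ATPase genes of the 19S particle, 8 of 11 were marked (72.7%, 39.0 to 94.0, beside 18.3% of all genes), an interval that overlaps those of the other proteasome roles. They held the 3 members of the Cre list alone (beside 4.28% of all genes). Where the −log10 q-value had to reach 5, the Cre-alone members were Psmd11, Psmd2, Psma2, Psmb3 and Psme2, and among the top 5000 peaks they were Psmd11, Psmd2, Psma2, Psma3 and Psme2. Psmd1, a large scaffold subunit gene, was shared, with pileups of 30 in Cre and 27 in GFP, and Psmd4, a ubiquitin receptor gene, was shared with 11 and 14. In the Cre list alone, Psmd11, a lid scaffold gene, had a peak of 155 bp with 14 fragments (7.65 to 23.5) and fold 7.47. Psmd2, the other large base scaffold gene, had a peak of 147 bp with 12 fragments (6.20 to 20.96), and a GFP peak of 10 fragments lay 899 bp farther into the gene. That GFP peak counted as interior, but its summit was 866 bp after the annotated start. With a 2.5 kb window Psmd2 was marked in both lists. Psmd8, a lid gene, had 10 fragments (4.80 to 18.4). In the GFP list alone, Psmd12, a lid gene, had 3 peaks covering 539 bp, with 10, 12 and 13 fragments. The peak of 13 had the lowest fold of these, 3.69, and the peak of 12 the highest, 6.67. The nearest Cre peak to Psmd12 was 63605 bp away. Psmd6 and Psmd3, also lid genes, had 11 and 9 fragments at single GFP peaks of 413 and 144 bp. Psmd7, which pairs with the lid deubiquitinase subunit, had 1 interior GFP peak of 10 fragments. Psmd13 and Psmd14, the deubiquitinase gene itself, had no peak.

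Among regulators and assembly factors, 1 of 5 activator genes, 2 of 7 assembly chaperone genes and not the inhibitor gene were marked, beside 18.3% of all genes. Of the activator genes, Psme2, encoding a subunit of the interferon-inducible PA28 ring, was marked in both lists with 13 fragments in Cre and 10 in GFP. Those peaks did not overlap and were 312 bp apart, the only shared member for which this was so. Psme1, Psme2b, Psme3 and Psme4 had no peak, nor had the inhibitor gene Psmf1. Among the assembly chaperone genes, Psmd5 was shared, with 3 Cre peaks (692 bp, up to 18 fragments) and 2 GFP peaks (467 bp, up to 15). Psmg2 was marked in the GFP list alone (12 fragments, 6.20 to 20.96), in a peak that also lay within 1 kb of the end of Cep76. Psmd9, Psmd10, Psmg1, Psmg3 and Psmg4 had no peak.

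Of 36 E2 genes, 7 were marked in both lists, 5 in the GFP list alone and none in the Cre list alone, beside 9.26%, 4.77% and 4.28% of all genes. With a 500 bp window Ube2r2 was marked in the Cre list alone. The other 24 had no boundary peak, and 21 of these had no interior peak either, among them Ube2a, the close relative of Ube2b, Ube2c, which starts chains for the anaphase-promoting complex, and Ube2l6, which carries ISG15. Ube2s, which extends chains for the anaphase-promoting complex, had the highest Cre pileup of the family, 21 fragments (13.0 to 32.1), against 19 (11.4 to 29.7) in GFP. Ube2z, charged by the alternative E1 UBA6, had 18 fragments (10.7 to 28.4) in Cre and 20 (12.2 to 30.9) in GFP. Both genes had the same number of start-proximal peaks in each library, and their intervals overlapped. The endoplasmic reticulum degradation enzymes Ube2j1 and Ube2g2 had pileups of 14 in Cre and 18 in GFP, and of 14 in both. Their folds were 7.47 in Cre and 6.64 in GFP at Ube2j1, and 5.86 and 7.70 at Ube2g2. Ube2d3, a broadly acting E2 gene, had 13 and 15. Ube2r2, which works with cullin ligases, had 13 in both, and Ube2m, the NEDD8-conjugating enzyme gene, had 12 and 13. Ube2m had 1 wide Cre peak of 694 bp and 6 separate GFP boundary peaks covering 1053 bp, 3 of them within 1 kb of the end of Chmp2a.

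The E2 genes of the GFP list alone divided into those with and without Cre peaks nearby. Ube2b, which acts in DNA damage tolerance and histone ubiquitination, had 2 GFP boundary peaks covering 870 bp, the larger of 641 bp with 16 fragments (9.15 to 25.98), and 2 further GFP peaks inside the gene. The nearest Cre peak was 95554 bp away. Ube2n, which builds signalling chains with a UBE2V partner, had 1 GFP peak of 12 fragments (6.20 to 20.96), and the nearest Cre peak was 192443 bp away. Ube2k and Ube2h, by contrast, had Cre peaks in the same place that were counted as interior. At Ube2k a Cre peak of 11 fragments overlapped the GFP peak of 14, and at Ube2h a Cre peak of 13 lay 39 bp from the GFP peak of 12. Ube2v1, whose inactive product partners UBE2N, had a GFP boundary peak of 9 fragments. The nearest Cre peak to it was 1196 bp away and counted neither as boundary nor as interior. Inside Ube2v1, a Cre peak of 8 fragments lay 1336 bp from a GFP peak of 10.

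Among the 17 shared members the summit pileup did not separate the libraries, but the families leaned in opposite directions. It was higher in the Cre library at 9, higher in the GFP library at 6 and equal at 2. The difference of Cre minus GFP ranged from -6 to 5 fragments with a median of 1. Of the shared proteasome genes, only Psmc5 and Psmd4 were higher in GFP. Of the shared E2 genes, only Ube2s was higher in Cre, while Ube2g2 and Ube2r2 were equal. By fold, Cre was higher at every shared proteasome gene except Psmd4, but of the shared E2 genes only at Ube2j1 and Ube2s. The difference between the families was not tested. The Poisson intervals, which are wide at such pileups, overlapped at all 17. Peaks of both lists shared at least 1 bp at 16 of them. The shares of all shared genes with such overlaps are not given here. Median top pileups of the shared members were 14 in Cre and 15 in GFP, and 15 in both libraries over all shared genes. One-library members were weaker, with top pileups of 10, 12 and 14 in Cre alone and from 9 to 16 in GFP alone (median 12.5). The same held over all genes, where the median was 12 in Cre alone and 12 in GFP alone. At 2 of 3 Cre-alone members and 8 of 12 GFP-alone members, the lower bound of the pileup was at or under 7 fragments, the lowest value called in the other list. No peak of the other list lay within 40 kb at 2 of the 3 Cre-alone members and 8 of the 12 GFP-alone members. The shares of all one-library genes with such a lower bound or such a distance are not given here. Whether the members differ from other genes in these respects was therefore not tested.

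**Figure D2:**
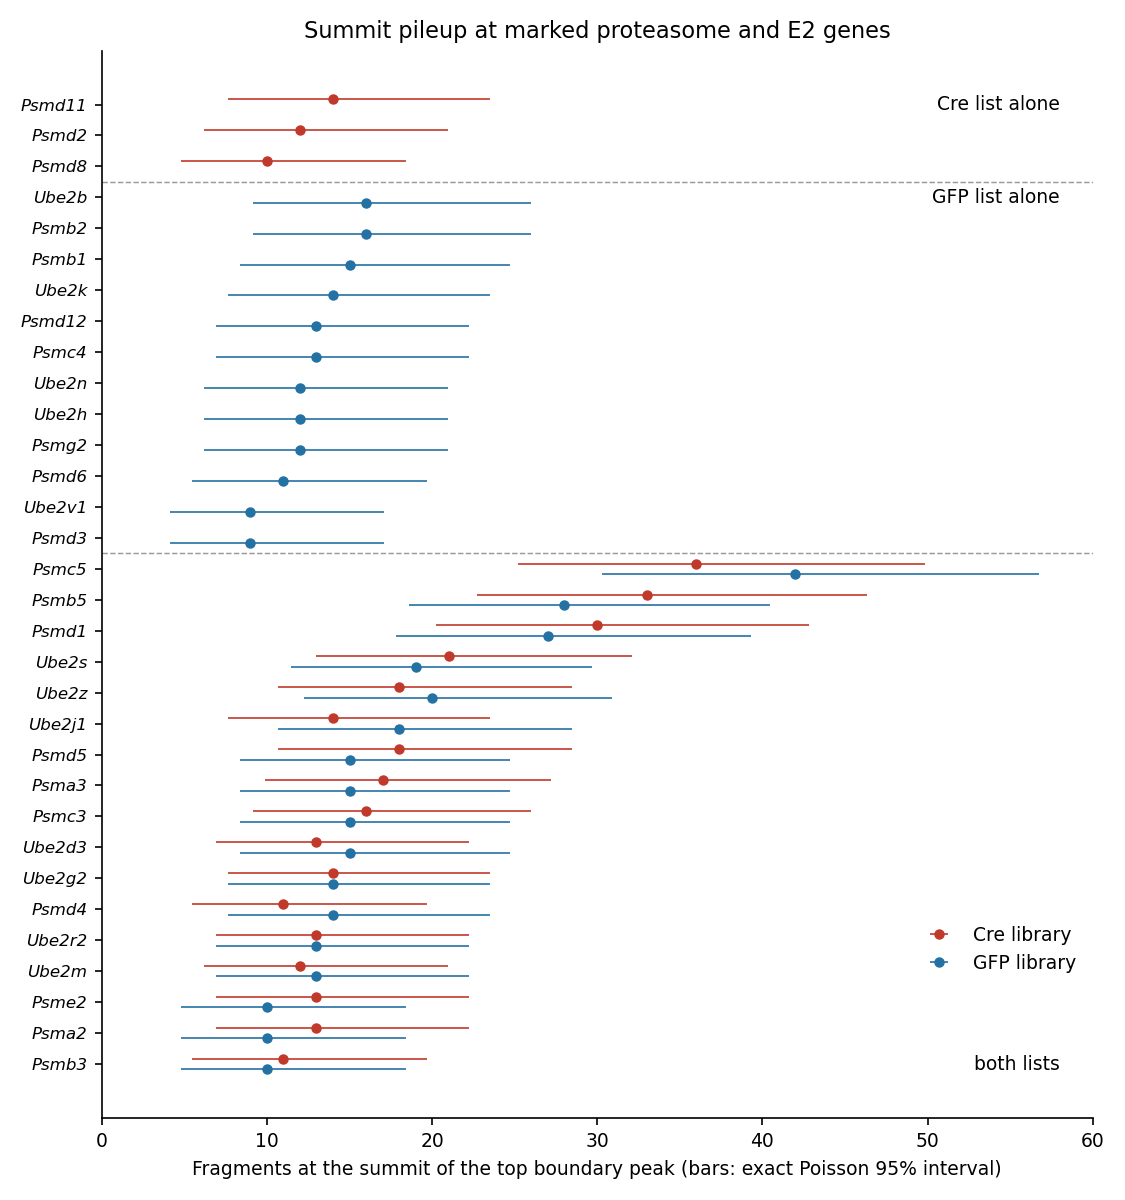
Fragments at the summit of the top boundary peak of each marked member in the Cre (red) and GFP (blue) libraries, with exact Poisson 95% intervals. Psmc5, Psmb5 and Psmd1 stand above the rest in both libraries, and no one-library gene exceeds 16 fragments.

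Counted over the whole group, there were 28 Cre and 47 GFP boundary peaks, beside 3596 and 3714 over all genes. They covered 6222 and 11626 bp, with mean folds of 7.93 and 6.96 and mean pileups of 15.3 and 13.7. Fold describes a peak within its own list, and the means are over peaks called separately in each library. Of these peaks, 67.9% (47.6 to 84.1) of the Cre and 40.4% (26.4 to 55.7) of the GFP ones overlapped a peak of the other list, beside 51.2% and 49.2% of the boundary peaks of all genes. Interior peaks numbered 24 in each library and covered 5661 bp in Cre and 4821 bp in GFP. A boundary peak wider than 500 bp was found at 1 member in the Cre list, Ube2m, and at 4 in the GFP list, Psmb1, Psmb2, Ube2b and Ube2j1. Those are 1.14% and 4.55% of the members, beside 0.987% and 1.09% of all genes.

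**Figure D3:**
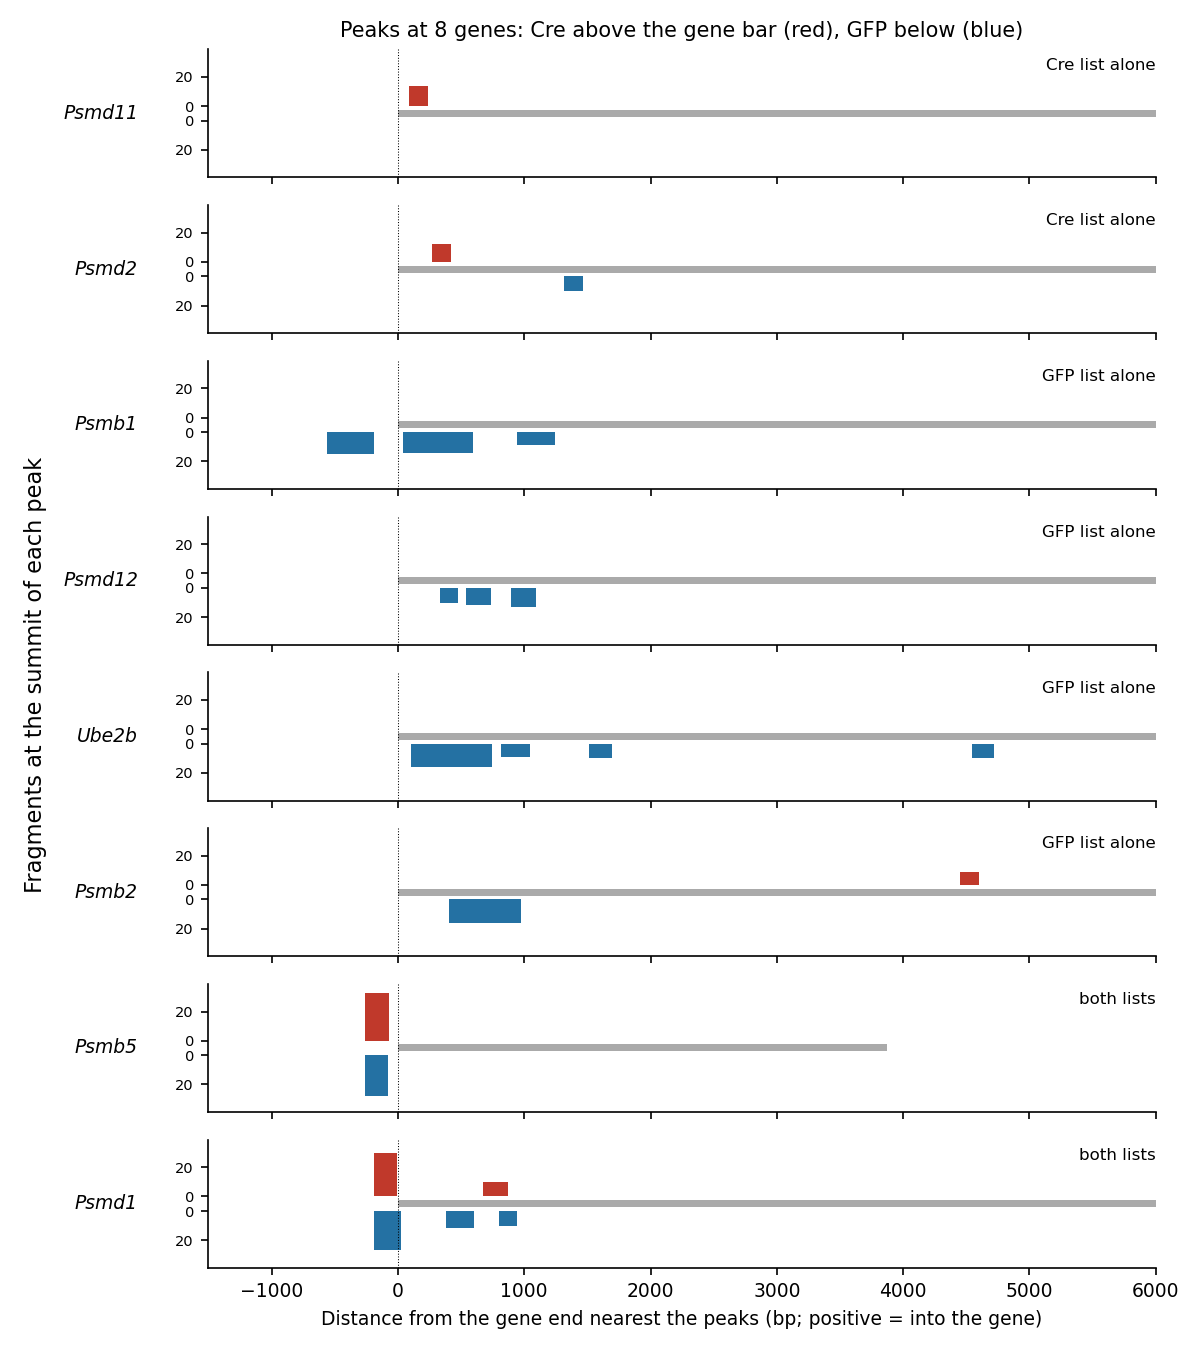
Peaks at 8 members drawn to scale by distance from the gene end nearest the peaks (grey bar, the gene), Cre above and GFP below, with height showing fragments at the summit. Psmb1, Psmd12 and Ube2b have several GFP peaks and no Cre peak in view, while Psmb5 and Psmd1 have a narrow peak in both libraries at the same end.

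Where a gene had an annotated start, most of its boundary peaks lay near one. RefSeq promoter sequences, and with them the strand and start, were matched for 73 of the 88 members. At those, 23 of 26 Cre and 33 of 39 GFP boundary peaks lay within 1 kb of an annotated start. Summits were a median of 361 bp from the start in Cre and 507 bp in GFP. They lay inside the gene for 10 of 23 Cre and 18 of 33 GFP peaks. The boundary peaks away from a start lay at the other end of Ube2m, Ube2r2 and Ube2s, and upstream of the annotated starts at Psma3 and Ube2b. The share of boundary peaks near a start over all genes is not given here. The strongest peaks lay just upstream. The 3 boundary peaks with at least 25 fragments in each library, at Psmd1, Psmb5 and Psmc5, had summits at -112, -153 and -193 bp from the start in Cre, and at -82, -164 and -207 bp in GFP.

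**Figure D4:**
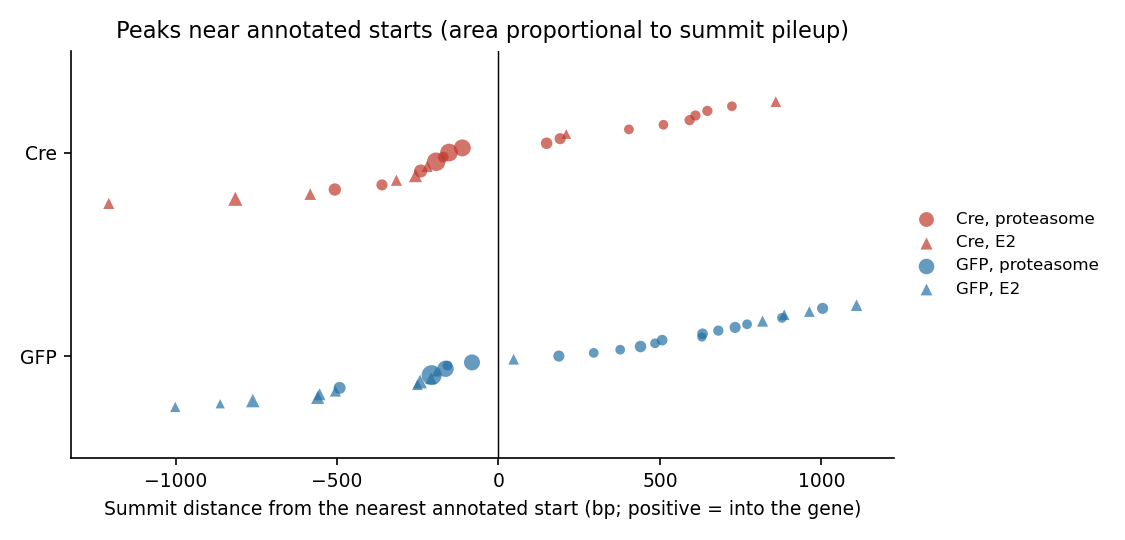
Distance from the nearest annotated start of the summit of each boundary peak within 1 kb of a start. Cre is above and GFP below, with circles for proteasome genes, triangles for E2 genes and area proportional to summit pileup (height within a library only separates the symbols). The largest symbols of both libraries lie just before the start, and the small ones are spread on both sides.

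Interior peaks were called in 18 members. They were in both lists at 11 (12.5%, 6.41 to 21.3, against 6.84% of all genes), in the Cre list alone at 3 (3.41%, against 3.41% of all genes) and in the GFP list alone at 4 (4.55%, against 3.38% of all genes). The one-library shares were near those of all genes. Genes with an interior peak were longer, with a median length of 28503 bp against 12513.5 bp for members without one. By definition such a peak lies more than 1 kb from both ends, so longer genes have more room for it. E2 genes were 9 of the 11 shared. Interior peaks were called in 11 of 36 E2 genes (30.6%, 16.3 to 48.1). The proteasome genes had them at 5 of 49 (10.2%, 3.40 to 22.2), beside 13.6% of all genes. Lengths were not compared between the families. Ube2d3 had 4 Cre and 2 GFP interior peaks with up to 12 and 20 fragments, and Ube2h had 2 and 3. Ube2d2a, Ube2f, Ube2g2, Ube2k, Ube2r2 and Ube2v1 had between 1 and 2 in each list. The shared genes outside the E2 family were Psma6 and Psme3ip1. In the Cre list alone were Psma3, Psmb2 and Ube2cbp. The 2 Psma3 peaks had up to 11 fragments, with summits 885 and 1167 bp after its annotated start, which lies inside the gene. The nearest GFP peak to the first of them was 6033 bp away. In the GFP list alone were Psmd2, Psmd7, Ube2b and Ube2m. Of interior peaks in members with an annotated start, 6 of 17 in Cre and 9 of 17 in GFP lay within 1 kb of one.

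When any peak in the gene or its 1 kb flanks was counted, 27 members were marked in both lists (30.7%, against 14.7% of all genes), 3 in the Cre list alone (3.41%, against 5.37%) and 9 in the GFP list alone (10.2%, 4.78 to 18.5, against 5.67%). The 3 in the Cre list alone were Psmd8, Psmd11 and Ube2cbp. The 9 in the GFP list alone were Psmb1, Psmc4, Psmd3, Psmd6, Psmd7, Psmd12, Psmg2, Ube2b and Ube2n. This count was chosen after the values of Ube2k and Ube2h were seen.

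Promoter letters were searched on both strands of the 300 bases around each annotated start, for 73 members and for 17492 protein-coding genes. GGGCGG, the GC box, was found at 22 of 26 marked members, 25 of 47 unmarked members and 49.2% of all genes, which were not divided by marking. By family it was at 23 of 41 proteasome and 23 of 29 E2 genes. CGGAAG, the core of ETS factor sites, was found at 22 of 41 proteasome genes (53.7%), 9 of 29 E2 genes (31.0%) and 23.5% of all genes. These 2 motifs can share the letters CGG. TGACNNNGC is the core of the antioxidant response element bound by the transcription factor NFE2L1. It was found at 6 proteasome genes (14.6%), among them Psmb5 and Psmd12, at 6 E2 genes (20.7%) and at 14.8% of all genes. CCAAT was at 14 proteasome and 9 E2 genes (34.1% and 31.0%, against 42.3% of all genes). Divided by marking, CCAAT was at 5 of 26 marked and 20 of 47 unmarked members, and CGGAAG at 14 of 26 and 19 of 47. TATAAA was at 8 of the 73 members (10.96%, against 14.8%), and the palindrome bound by nuclear respiratory factor 1 at 3, namely Psma2, Psmg1 and Ube2k (4.11%, against 1.47%). Median GC content was 57.3% at proteasome and 64.0% at E2 promoters, against 56.3% at all.

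Another protein-coding gene had an end within 1 kb of the gene at 10 of 32 marked members (31.2%) and 15 of 56 unmarked members (26.8%). Over all genes the shares were 45.4% of marked and 20.2% of unmarked genes. Peaks at Psma2 lay also near the end of Mrpl32, those at Psmc5 near Ftsj3, and those at Psme2 near Rnf31, so they cannot be assigned to one gene.

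Other genes of the pathway, from a list of 36 of which 35 were in the gene table, had a boundary peak at 17 of 35 (48.6%, against 36.4% of the members and 18.3% of all genes), in both lists at 9 and in one list alone at 4 each. The ubiquitin genes Rps27a and Ubb were marked in both, with pileups of 41 and 17 in Cre and 33 and 20 in GFP. So was Nfe2l1, the transcription factor gene that raises proteasome genes when proteolysis is blocked, with 12 in Cre and 20 in GFP. Also shared were Ddi2, whose protease activates that factor, the NEDD8 E1 subunit gene Uba3, Ufd1, Ubqln1 and Ubqln4. Those of the Cre list alone included Sem1, a small 19S subunit gene (14 fragments), the modifier gene Nedd8 (15) and Rad23b, a shuttle receptor gene (18). Those of the GFP list alone included Pomp, the 20S assembly factor gene (11), the stress response factor gene Nfe2l2 (11) and Vcp, the segregase gene (13). The one-library counts were thus 4 for Cre and 4 for GFP, beside 3 and 12 among the members, and the difference between these lists was not tested.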

How the data were processed

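H3K27ac chromatin immunoprecipitation libraries of a Cre and a GFP chondrocyte culture were compared from their deposited peak lists, with groups taken from the sample titles. The 2 input libraries were not analysed here. Build mm10 and the tools SICER, Picard, BWA and bcl2fastq (1.8.4) are named in the submitters' processing notes, without their roles. The deposited lists have the column order of MACS2 output. The sources used here give neither its settings nor its controls. The deposited score is the −log10 q-value multiplied by 10 and rounded down. The deposited fold enrichment is a ratio of observed to expected pileup, with 1 added to each. The deposited −log10 values, a p-value and a q-value, are for the summit.

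Fold and p-value were solved for a whole pileup (Poisson upper tail, tolerance 0.001), which held for 100% of peaks. Sequencing depth was not given by the sources used here, and background pileups (1.01 in Cre, 0.949 in GFP, ratio 1.06) depend on depth and on the caller's unknown fragment length. Genes came from RefSeq GRCm38.p6, the assembly that mm10 names, and strands and starts from its promoter table. Positions are 1-based. Shares carry Clopper-Pearson and pileups exact Poisson 95% intervals (scipy 1.17.1, pandas 2.3.3). The marking and pileup steps were tested on simulated data. By rule, the one-library members, the 16 shared ones of highest fold percentile, the 10 with most interior peaks and all unmarked proteasome genes were named; the remaining shared, interior-marked and E2 genes were named after their values were seen. Promoters were the 2 of highest fold per family and list among members with a matched promoter sequence, without chromosome 18; Ube2b, whose listed starts lie away from its end peaks, is not printed. Alternatives changed the window, the placing of peaks, the q-value, the number of peaks and the overlap. A few genes are not reported here by name. The members, lists and settings were chosen with earlier results of these data known.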

Additional observations from a re-analysis of the deposited data

How the results depend on the processing

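Of 45 values recomputed under other settings, 33 stayed within 1.5 times the main count or inside the interval of the share, and 12 did not. Where the −log10 q-value had to reach 5, the Cre list alone marked 5 members at a boundary, and interior peaks were in both lists at 5 members, in the Cre list alone at 5 and in the GFP list alone at 0. There, 2 of the 5 Cre-alone members were among the main 3, and all 9 GFP-alone members were among the main 12. Among the top 5000 peaks of each list, boundary peaks were in both lists at 9 members and in the Cre list alone at 5, and interior peaks were in both at 1 and in the GFP list alone at 2. There, 2 of the 5 Cre-alone members were among the main 3, and 7 of the 10 GFP-alone members among the main 12. With 2.5 kb left out of the interior at each gene end, interior peaks were in both lists at 4 members, in the Cre list alone at 7 and in the GFP list alone at 2. Counting any peak in the gene and 1 kb flanks, chosen after seeing the data, gave 27 members in both lists. The Cre-alone boundary count lay between 2 and 5 and the GFP-alone count between 8 and 13 under every setting run, the lowest GFP-alone value being over 73 genes with an annotated start. The causes of these changes were not tested, apart from fewer peaks or genes being counted. No paired analysis was possible because each culture has 1 library. The one-library members had top pileups of 9 to 16 fragments, and a pileup of 7 was the lowest called over background; the part of depth in these calls was not tested.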
